A study of Mus musculus with 7 samples.

Results

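A set of 9 genes, of 23955 gene names in the count table with spike-ins left out, that read, write or erase repressive and activating chromatin marks were followed across 7 mouse esophageal epithelial cell lines, and were picked from the table by symbol. They were the BET family genes Brd2 and Brd3, the Polycomb methyltransferase genes Ezh1 and Ezh2, the DNA methyltransferase genes Dnmt1, Dnmt3a and Dnmt3b, and the dioxygenase genes Tet2 and Tet3. All 9 were among the 13768 genes that passed the expression filter, and each was detected in every library. The lines, of mixed strain background, were grown on plastic in keratinocyte serum-free medium (KSFM). The groups were wild type (WT, 2 lines), the p53R172H missense allele (mutant, 3 lines) and p53 -/- (null, 2 lines, named null 1 and null 3). The carcinogen 4NQO was the treatment label of all mutant and null lines and of no WT line. Altered p53 and the 4NQO label therefore cannot be told apart in any comparison with WT, and the mutant and null lines together are called the 4NQO lines below. Whether the lines of a group derive from different animals is not labelled. Each p-value concerns a difference between groups of these particular lines, given the spread among them, and does not reach beyond these lines.

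BET proteins bind acetylated histones through paired bromodomains and recruit the transcription elongation machinery. Polycomb repressive complex 2 (PRC2) methylates histone H3 at lysine 27 with EZH1 or EZH2 as its catalytic subunit. EZH2 is abundant in dividing cells and EZH1 is typical of resting and differentiated ones, and in stratified epithelium PRC2 restrains differentiation genes in the basal layer. DNMT1 copies DNA methylation onto the new strand after replication, whereas DNMT3A and DNMT3B place methylation de novo. TET enzymes oxidize 5-methylcytosine, the first step of active demethylation.

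Library depth ranged from 12751118 counts in WT 2 to 47000225 in mutant 1. The targeted gene Trp53 was at 171.6 to 253.9 CPM (read counts scaled to library size with TMM factors) in the WT and mutant lines and at 4.71 and 8.73 CPM in the null lines, as labelled. Xist, transcribed from the inactive X chromosome, was at 675 and 1653 CPM in the WT lines and below 1 CPM elsewhere. The Y-linked gene Ddx3y was at 67.4 to 96.4 CPM in the mutant lines and null 3 and below 1 CPM in WT and null 1, so Xist separated WT from all other lines and Y-linked expression did not. Of the fixed cell type markers, 12 of 12 epithelial genes were tested, and their summed level was 30116 to 41651 CPM in the WT libraries, 8161 to 11470 among the mutants and 7326 to 11436 among the nulls. The 10 of 12 fibroblast genes tested summed to 6.40 to 10.6 CPM in WT, 96.8 to 1103 in mutant, and 11.6 and 818 in null 1 and null 3. In mutant 2, the mutant line with the lowest sum, Col5a1 alone was at 85.5 CPM. The 9 of 10 muscle genes tested summed to 165 and 304 CPM in WT, 835, 644 and 171 CPM in mutant 1, 2 and 3, and 30.5 and 494 CPM in null 1 and null 3. Null 3 also had the skeletal muscle genes Myod1 at 23.0 CPM and Des at 26.0 CPM, which were below 1 CPM in the other lines. Of 12 leukocyte genes 2 were tested, Cd68 at 22.5 to 91.8 CPM and Lyz2 at 0 in WT and at most 0.753 CPM elsewhere, and Ptprc, the pan-leukocyte marker, had 6 counts in all. The 3 of 7 endothelial genes tested (Pecam1, Kdr and Vwf) summed to 0.340 to 2.01 CPM, and Cdh5, which defines endothelium, had 1 count in all.

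None of the 9 genes passed the test (edgeR, adjusted p under 0.05 over all tested genes) in any of the 4 comparisons. In mutant against WT this was 0 of 9 where 7.42% of all tested genes passed, in null against WT 0 of 9 against 0.138%, in mutant against null 0 of 9 against 0%, and in all 4NQO lines against WT 0 of 9 against 4.71%. At an unadjusted p under 0.05 the counts were 2, 1, 3 and 2 of 9, where 30.5%, 20.2%, 14% and 28.1% of all tested genes passed. For all tested genes the calls divided into 3.3% higher and 4.13% lower in mutant against WT, 0.0726% and 0.0654% in null against WT, and 1.9% and 2.8% in the 4NQO lines against WT. DESeq2 called 2, 1, 2 and 1 of the 9, where it called 3197, 1548, 604 and 2819 of the 13768 tested genes. These counts are to be read beside that larger number of calls and not beside the edgeR shares. Limma-voom called 1 of the 9 in mutant against WT and 0 in the other comparisons. Every one of these calls among the 9 was for a lower level. The median log2 fold change of the 9 lay between -0.08 and 0.09 in the 4 comparisons, and the median of all tested genes between 0.02 and 0.08. The differences that follow are given as levels with their spread, and the comparisons with WT share the same WT libraries.

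**Figure D1:**
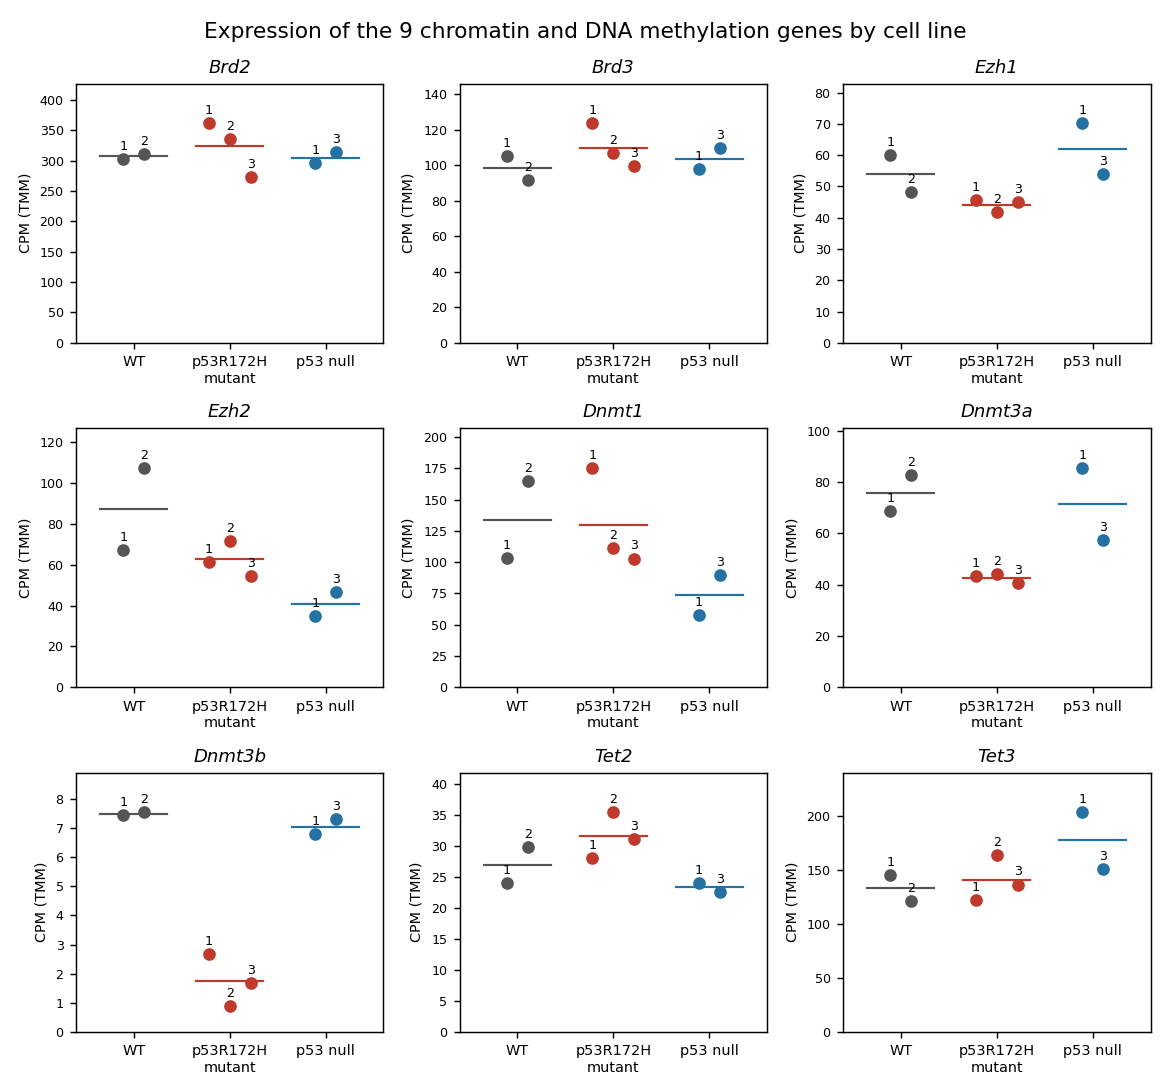
Level of each gene (y axis, TMM-normalized CPM, from 0) in each cell line, with 1 point per library, the line number above it and the group mean as a bar. The 3 mutant lines lie below all other lines for Dnmt3b and Dnmt3a, and the 2 null lines lie below all other lines for Ezh2 and Dnmt1.

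Dnmt3b, a de novo DNA methyltransferase, showed the widest spread. It stood at 7.45 and 7.55 CPM in WT 1 and WT 2, at 2.66, 0.878 and 1.67 CPM in mutant 1, 2 and 3, and at 6.79 and 7.33 CPM in null 1 and null 3. All 3 mutant lines were thus below all 4 other lines, and the highest and lowest libraries differed 8.60-fold. The underlying counts were low, 37 to 131 in the mutant and 93 to 223 in the other libraries. The log2 fold change was -2.11 (SE 0.519, 4.30-fold lower, 95% interval -3.34 to -0.87) in mutant against WT, with edgeR adjusted p = 0.0581. It was -2.02 (SE 0.517) in mutant against null, with adjusted p = 0.275, and -0.09 (95% interval -1.45 to 1.27) in null against WT, so the interval reached beyond 1 log2 unit on both sides. Intervals here and below are for single genes and are not adjusted for the number of genes. Dnmt3b in mutant against WT passed with DESeq2 (adjusted p = 0.00348), limma-voom (0.0498), the newer quasi-likelihood form (0.0427) and without mutant 1 (0.0361), over a range of 0.00348 to 0.271 across 16 alternatives, and its estimate stayed between -2.57 and -1.81. Of the 12 epithelial markers 4 had the same order, with all mutant lines below all others: Epcam, Cdh1, Krt4 and Krt13. At most 15.1% of all tested genes can have this order, the share that was lower without overlap in mutant against null. The other markers did not have it. Mean Krt5 was 3041 CPM in both mutant and null lines, and mean Sfn was 345 CPM in mutant and 227 in null. Mean Sox2 was 87.5 CPM in mutant and 52.5 in WT. Epcam, an epithelial adhesion gene, was at 454 and 386 CPM in WT, 175, 70.1 and 55.0 CPM in mutant, and 353 and 388 CPM in null lines. Cdh1, which encodes E-cadherin, was at 931 and 691, 476, 289 and 445, and 742 and 762 CPM. The summed fibroblast markers were 96.8 CPM in mutant 2, which had the lowest Dnmt3b, and 818 CPM in null 3, where Dnmt3b was 7.33 CPM against a WT mean of 7.50. Of the mutant 2 sum, 85.5 CPM came from Col5a1 alone. The part of epithelial state or of other cells in the Dnmt3b and Dnmt3a levels was not tested.

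Dnmt3a, its paralog, was also lowest in the mutant lines, at 43.5, 44.1 and 40.7 CPM. WT 1 and WT 2 had 68.9 and 82.7 CPM, and null 1 and null 3 had 85.7 and 57.4 CPM. The mutant lines agreed closely with each other (42.8 ± 1.83 CPM, SD, n = 3) and did not overlap with WT (75.8 ± 9.71, n = 2) or null (71.6 ± 19.96, n = 2), while the null lines lay on either side of both WT lines. The log2 fold change was -0.82 (SE 0.204, 95% interval -1.31 to -0.34) against WT, with adjusted p = 0.0585, and -0.74 (SE 0.204) against null, with adjusted p = 0.287. Against WT it passed in 5 of 16 alternatives, with adjusted p from 0.00485 to 0.315. In null against WT it was -0.08 (95% interval -0.62 to 0.46). Without null 1, which had the highest Dnmt3a of all lines, the estimate in mutant against null was -0.42 in place of -0.74.

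Dnmt1, the maintenance methyltransferase, had another order. It was at 103 and 165 CPM in WT 1 and WT 2, at 176, 111 and 103 CPM in mutant 1, 2 and 3, and at 57.6 and 89.6 CPM in null 1 and null 3. The null lines were the lowest, and WT and mutant lines covered the same range. The log2 fold change was -0.86 (SE 0.371, 95% interval -1.75 to 0.02) in null against WT, with adjusted p = 0.255, and 0.82 (SE 0.344) in mutant against null, with adjusted p = 0.356. Mutant and WT differed by -0.04 (95% interval -0.84 to 0.76). Leaving out WT 2 moved the null against WT value to -0.49 and leaving out null 3 moved it to -1.22. The mutant against null value was 0.52 without mutant 1 and 0.54 without null 1.

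Ezh2, the PRC2 subunit of dividing cells, was highest in WT 2. It was at 67.2 and 108 CPM in WT 1 and WT 2, at 61.5, 71.8 and 54.7 CPM in the mutant lines, and at 34.9 and 46.8 CPM in null 1 and null 3. The null lines were below every other line, and the mutant lines overlapped WT 1 only through mutant 2. In null against WT the log2 fold change was -1.10 (SE 0.284, 2.14-fold lower, 95% interval -1.77 to -0.42) with an unadjusted edgeR p of 0.0068 and adjusted p = 0.136. DESeq2 gave adjusted p = 0.0126, the only one of 16 alternatives past the threshold, over a range of 0.0126 to 0.632. Without WT 2 the value was -0.72 and without null 1 it was -0.90. The 4NQO lines together differed from WT by -0.79 (SE 0.229, adjusted p = 0.0898; -0.41 without WT 2), and mutant from null by 0.62 (SE 0.261, adjusted p = 0.360).

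Ezh1, the alternative catalytic subunit, was at 59.9 and 48.1 CPM in WT, at 45.5, 41.8 and 45.0 CPM in mutant, and at 70.2 and 53.9 CPM in null lines. Null 1 was highest for Ezh1 and lowest for Ezh2. The mutant lines lay below all others for Ezh1, by -0.29 on the log2 scale against WT (SE 0.185, adjusted p = 0.317) and by -0.49 against null (SE 0.184, adjusted p = 0.323). Without WT 1 the first value was -0.11 and without WT 2 it was -0.44, and without null 1 the second was -0.28.

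**Figure D2:**
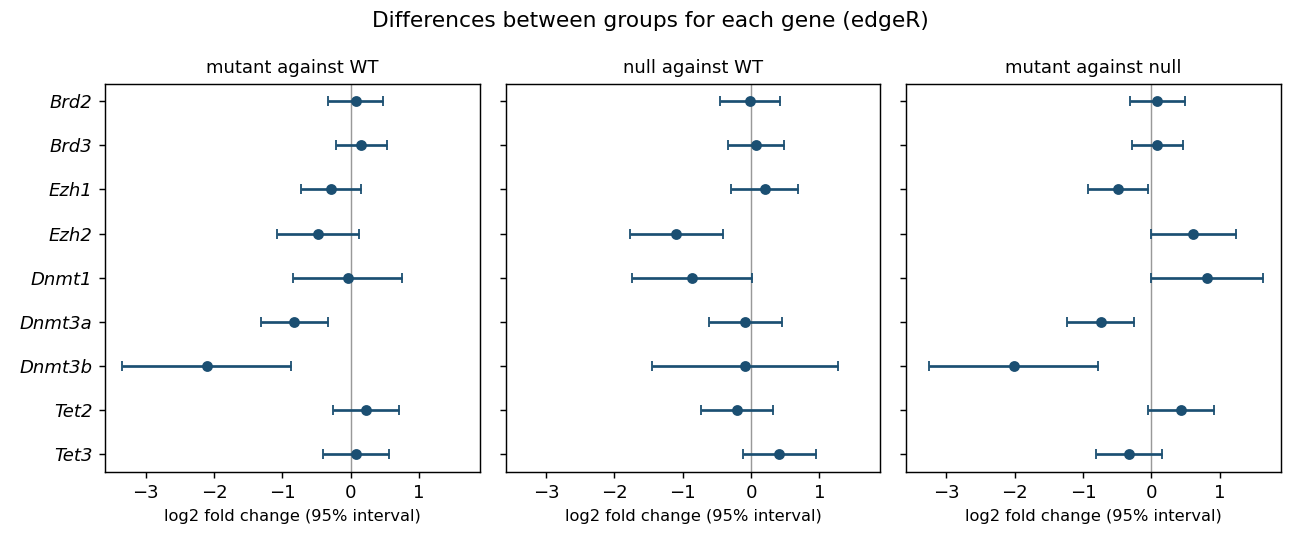
Log2 fold change (x axis) of each gene in 3 comparisons, with points for the edgeR estimate and bars for its 95% interval, unadjusted for the number of genes. Brd2 and Brd3 sit near 0 in all 3 panels, Dnmt3a and Dnmt3b are lower in mutant against both other groups, and Ezh2 is lower in null against WT.

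Ezh2 and Dnmt1 are both known as genes whose transcription rises as cells enter the cycle, and the mean level of proliferation genes varied between these lines. Of 24 such genes, none of them one of the 9, edgeR called 1 in mutant against WT (7.42% of all tested genes). It called 0 in null against WT (0.138%), mutant against null (0%) and the 4NQO lines against WT (4.71%). In mutant against WT 11 of the 24 were above 0 and 13 below. The mean log2 ratio to WT of the 24 was -0.38 and 0.38 in WT 1 and WT 2, 0.20, -0.17 and 0.07 for the 3 mutant lines by number, and -2.08 for null 1 and -0.51 for null 3. On the same scale, Ezh2 was at -0.34, 0.34, -0.47, -0.24, -0.64, -1.28 and -0.86 and Dnmt1 at -0.34, 0.34, 0.43, -0.23, -0.34, -1.18 and -0.54 in that order of lines. Null 1 was thus the lowest line for the proliferation genes and for both chromatin genes, and WT 2 was above WT 1 for all 3 measures. Mki67, a marker of cycling cells, was at 14.6 CPM in null 1 and 98.0 to 225 CPM in the other 6 lines, and Uhrf1, which brings DNMT1 to newly replicated DNA, was at 17.9 CPM in null 1, 36.6 in null 3 and 51.0 to 94.9 in the other 5. In mutant 1 and mutant 3, Ezh2 was below its WT mean while the proliferation genes were above theirs. The part of proliferation in the Ezh2 and Dnmt1 differences was not tested, and in bulk RNA fewer expressing cells and less RNA per cell cannot be told apart.

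**Figure D3:**
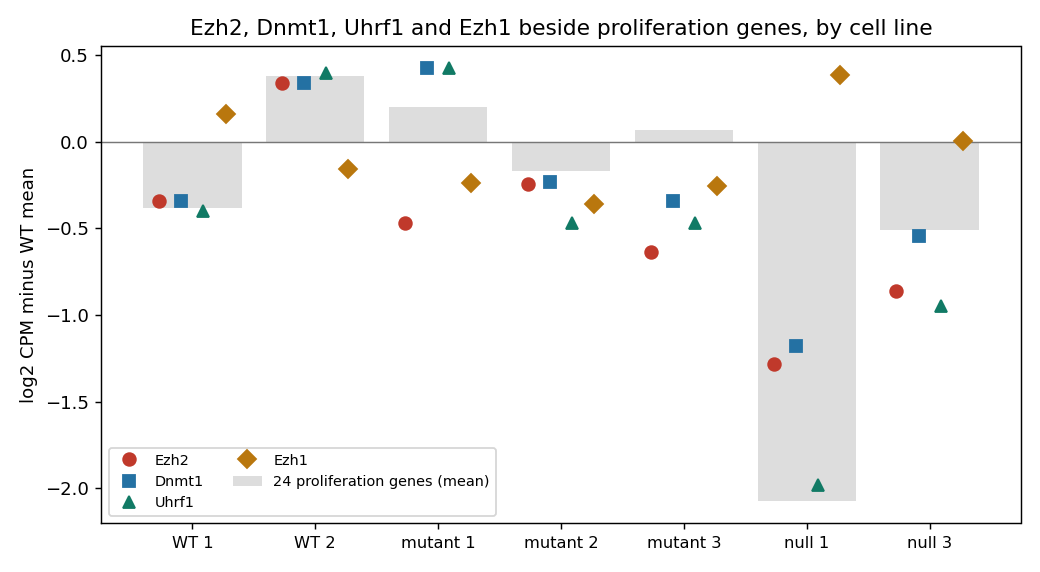
Log2 CPM minus the mean of the 2 WT lines (y axis) for Ezh2, Dnmt1, Uhrf1 and Ezh1 in each of the 7 lines, with grey bars for the mean of 24 proliferation genes. Null 1 has the lowest bar (-2.08) and the lowest Ezh2, Dnmt1 and Uhrf1 points, and the highest Ezh1 point.

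RefSeq promoter windows (GRCm38.p6, from 250 bases before to 50 after a start site) were found for all 9 genes, with 3 start sites each for Brd2, Dnmt1 and Dnmt3a. They were searched on both strands for the E2F-type motifs TTTGGCGC and TTTCCCGC, since E2F factors act on cell cycle genes. Among the 9 genes a match was found in Ezh2 and in the third Dnmt1 window, counted in the direction of transcription, and 1.57% of 32841 windows hold one. That share is over all windows, with a median of 7 CpG, while these Ezh2 and Dnmt1 windows held 31 and 33. The share among windows as rich in CpG was not computed. Both matches were TTTGGCGC, found in 0.515% of windows, on the same strand as the gene and just after the start site. They are shown as 30-base stretches with the motif in capitals, for Ezh2 (chr6:47595009-47595038, minus strand) and Dnmt1 (chr9:20952574-20952603, minus strand).
Ezh2: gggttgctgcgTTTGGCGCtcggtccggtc
Dnmt1: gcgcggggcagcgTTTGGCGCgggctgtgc
The motif began 4 bases after the Ezh2 start site and 34 bases after that of Dnmt1. A match is a description of the letters and not evidence of binding. E2f1, from the proliferation list, was at 18.5 and 16.2 CPM in WT, 57.2, 37.9 and 42.4 CPM in mutant, and 20.1 and 46.4 CPM in null lines. The part of E2F factors in the Ezh2 and Dnmt1 levels was not tested.

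The windows of Dnmt3a and Dnmt3b, both lowest in the mutant lines, held neither E2F-type motif. They held several GC boxes (GGGCGG on either strand, in 35.7% of all windows). Neither trait was particular to them. Brd2, Brd3, Ezh1, Tet2 and Tet3 also lacked the E2F-type motifs, and windows of Brd2, Brd3, Dnmt1, Tet2 and Tet3 held 1 or 2 GC boxes. Ezh1, also lowest in the mutant lines, had no GC box in its window. The 250 bases before the first Dnmt3a start site (chr12:3806730-3806979, plus strand) and before the Dnmt3b start site (chr2:153649199-153649448, plus strand) are shown with GC boxes in capitals, 5 and 3 of them.
Dnmt3a: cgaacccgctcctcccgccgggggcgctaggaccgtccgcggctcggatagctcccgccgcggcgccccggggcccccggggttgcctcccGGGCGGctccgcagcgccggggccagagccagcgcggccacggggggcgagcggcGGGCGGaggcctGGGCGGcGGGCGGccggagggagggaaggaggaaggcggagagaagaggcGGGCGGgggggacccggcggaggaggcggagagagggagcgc
Dnmt3b: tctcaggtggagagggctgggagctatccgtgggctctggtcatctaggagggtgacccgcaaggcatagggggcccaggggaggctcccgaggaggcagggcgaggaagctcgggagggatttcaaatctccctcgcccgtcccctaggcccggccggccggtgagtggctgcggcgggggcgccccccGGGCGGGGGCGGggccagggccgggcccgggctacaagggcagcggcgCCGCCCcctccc
Both windows are rich in CpG, the dinucleotide these enzymes methylate. The first 300-base Dnmt3a window held 46 CpG and that of Dnmt3b 30, against a median of 7 over all windows. CpG richness was not particular to them either. The windows of Tet2 and Brd3 held 57 and 46 CpG, and those of Ezh2, Ezh1 and Tet3 held 31, 23 and 22. The Brd2 windows held 32, 14 and 24 CpG, and the Dnmt1 windows 2, 12 and 33. Methylation was not measured here.

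Brd2 and Brd3 were the steadiest of the 9. Brd2 was at 303 and 311 CPM in WT, 362, 336 and 273 CPM in mutant and 296 and 314 CPM in null lines. Brd3 was at 105 and 91.8 CPM in WT, 124, 107 and 99.5 CPM in mutant and 97.7 and 110 CPM in null lines. The groups overlapped for both genes in every comparison, and the highest and lowest library differed 1.32-fold for Brd2 and 1.35-fold for Brd3. The 95% intervals in mutant against WT were 0.798- to 1.39-fold for Brd2 and 0.859- to 1.45-fold for Brd3, ranges in which a difference of either sign remains possible. Brd2 shares 4.60% of its annotated exon bases with H2-DMa on the opposite strand, and since the strand setting of the counting is not given, reads from that stretch cannot be assigned.

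Tet2 and Tet3, both 5-methylcytosine dioxygenases, spanned 1.57-fold and 1.68-fold from the lowest to the highest library. Tet2 was at 24.02 and 29.8 CPM in WT, 28.0, 35.4 and 31.0 CPM in mutant, and 24.04 and 22.5 CPM in null lines. Tet3 was at 146 and 121 CPM in WT, 123, 164 and 137 CPM in mutant, and 204 and 152 CPM in null lines. Tet2 was higher in every mutant line than in either null line (log2 fold change 0.44, SE 0.202, adjusted p = 0.385). Tet3 was higher in both null lines than in either WT line (0.41, SE 0.223, adjusted p = 0.334), with null 1 alone the highest of the 7. Without null 1 the Tet3 value was 0.18 and without WT 2 it was 0.28. Tet1, the remaining TET gene, had 52 counts over all libraries, 31 of them in mutant 1, and did not pass the filter.

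Counted over the 9 genes, groups did not overlap for 3 in mutant against WT (all lower), for 4 in null against WT (3 lower, 1 higher), for 6 in mutant against null (3 lower, 3 higher) and for 1 in the 4NQO lines against WT. The same held for 52.6% (26.9% higher, 25.7% lower), 56.1% (29.1% and 27.1%), 31.1% (16% and 15.1%) and 33.8% (17.4% and 16.4%) of all tested genes. Of the total counts, only the 6 of 9 in mutant against null was above the share of all genes. By direction, the 3 of 9 lower in mutant against WT and in null against WT were also above their shares. The 9 genes were chosen with earlier results of these data known, so these counts are descriptions only. In mutant against null Ezh1, Dnmt3a and Dnmt3b were the lower 3 and Ezh2, Dnmt1 and Tet2 the higher 3. Since 1 of those 2 null lines stood apart in proliferation genes, the values without null 1 are relevant, although they leave only 1 null line. They were 0.43 for Ezh2, 0.54 for Dnmt1, 0.49 for Tet2, -0.28 for Ezh1, -0.42 for Dnmt3a and -2.06 for Dnmt3b.

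Ratios of related genes were formed within each library, which removes the scaling between libraries. Ezh2 had 1.12 and 2.24 counts per Ezh1 count in WT 1 and WT 2, 1.35, 1.72 and 1.21 in the mutant lines, and 0.497 and 0.869 in null 1 and null 3. Both null lines thus had a lower ratio than any WT or mutant line, and null 1 the lowest. On the log2 scale the null lines averaged -0.60 ± 0.569 (SD, n = 2) and the mutant lines 0.50 ± 0.256 (n = 3), a difference of 1.10 (exact permutation p = 0.1, two-sided, the smallest that 3 against 2 lines allow). Dnmt3b had 0.108 and 0.0914 counts per Dnmt3a count in WT, 0.0612, 0.0199 and 0.0411 in mutant, and 0.0792 and 0.128 in null lines. The mutant lines were below the other 4 here too, by 1.42 against WT on the log2 scale (exact permutation p = 0.2), so Dnmt3b was low relative to Dnmt3a as well as to the library. The Brd3 to Brd2 ratio stayed between 0.295 and 0.364 in all lines. The Tet3 to Tet2 ratio was 6.07 and 4.07 in WT, 4.37 to 4.64 in mutant and 8.48 and 6.73 in null lines. For the 5 4NQO lines against the 2 WT lines none of the 4 ratios passed the test (two-sided exact permutation p = 0.333 to 0.667, adjusted over the 4 ratios 0.508 to 0.667, smallest possible p 0.0476).

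**Figure D4:**
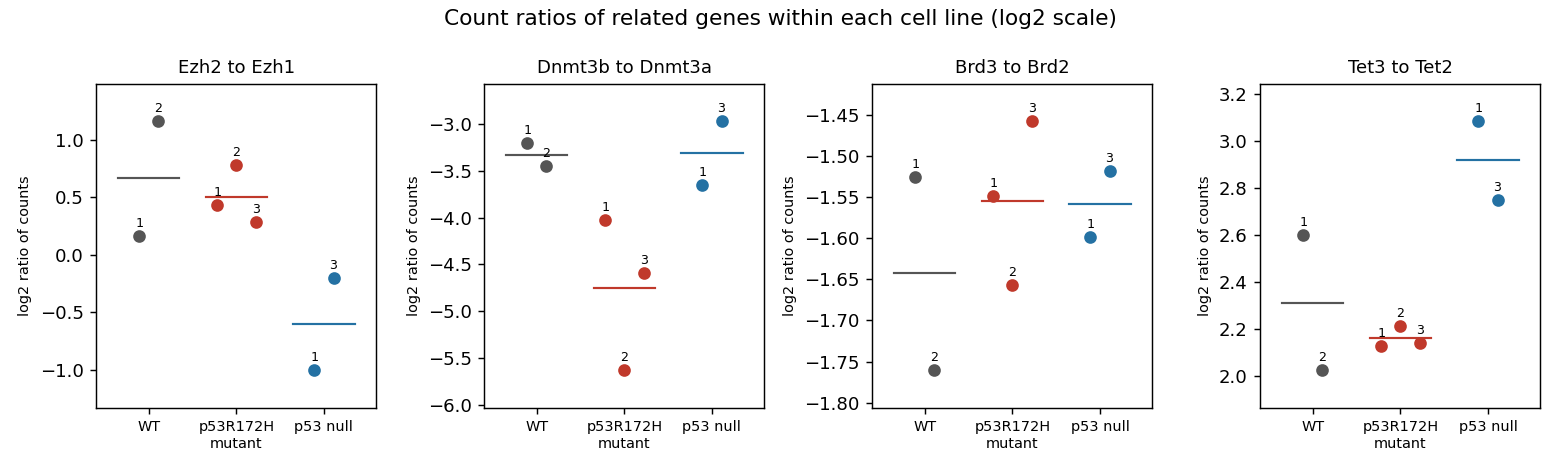
Log2 ratio of counts (y axis) of 4 pairs of related genes within each line, with 1 point per library, its line number and the group mean as a bar. The null lines lie lowest for Ezh2 to Ezh1 (0.497 and 0.869 on the linear scale), and the mutant lines lie lowest for Dnmt3b to Dnmt3a (0.0199 to 0.0612).

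Levels were compared between genes only per kilobase of coding-transcript exon in GENCODE M21, an annotation that may differ from the one used for counting. In the WT lines the order was Brd2 (46.7 and 48.0 CPM per kb), Ezh2 (22.7 and 36.3), Dnmt1 (16.4 and 26.2), Brd3 (18.2 and 15.85), Tet3 (12.3 and 10.3), Ezh1 (9.86 and 7.90), Dnmt3a (6.002 and 7.20), Tet2 (2.58 and 3.21) and Dnmt3b (1.72 and 1.75). The ranges of Ezh2 and Dnmt1 and those of Dnmt1 and Brd3 overlapped, and the other neighbours in this order did not. In null 1, Ezh2 at 11.8 CPM per kb was level with Ezh1 at 11.55.

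Likeness of profile was taken as the root mean square (RMS) difference of centred log2 CPM over the 7 lines among genes with a mean of at least 5 CPM, which left out Dnmt3b. Dnmt1 was nearest to Hells (0.133), a chromatin remodeler needed for DNA methylation, then to Chtf18 (0.146) and to the primase subunit gene Prim2 (0.160). Ezh2 was nearest to Ccar2 (0.106), the cohesin subunit gene Smc1a (0.110) and Cntrl (0.118). The 3 nearest of Dnmt3a were Erlin2 (0.0872), Ell2 (0.0992) and Rpl17 (0.104), and Ezh1 was near to Slc39a11 (0.0634) and Dym (0.0687). For Tet2 they were Cetn3 (0.0564), Zscan22 (0.0629) and Hnrnpa0 (0.0703), and for Tet3 Syvn1 (0.0624), Plekha1 (0.0783) and Stard3 (0.0820). The flat profiles of Brd2 and Brd3 were nearest to Smarcc1 (0.0647), Cul1 (0.0680) and Hsf1 (0.0691) and to Ccdc12 (0.0605), Pgs1 (0.0726) and Smad3 (0.0758). Among the 8 genes themselves, Brd2 and Brd3 were the closest pair (0.0941). These are descriptions over lines that share the same depth and proliferation differences.

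Other genes of the same pathways came from 7 lists of partners, which held 68 further genes, 63 of them tested. Of these, 3 rose in mutant against WT (4.76%, against 7.42% of all tested genes), none passed in null against WT or mutant against null, and in the 4NQO lines against WT 2 rose and 1 fell (4.76% against 4.71%). Their median log2 fold change in mutant against WT was 0.29, against 0.08 for all tested genes. At an unadjusted p under 0.05 the edgeR counts were 21, 16, 6 and 20 of 63 in the 4 comparisons. For all tested genes the shares were 30.5%, 20.2%, 14% and 28.1%. DESeq2 called 12, 7, 1 and 12 of the 63, where it called 3197, 1548, 604 and 2819 of the 13768 tested genes. Limma-voom called 3, 0, 0 and 2 of the 63.

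Rbbp4, a histone-binding subunit that PRC2 shares with other complexes, was at 129 and 99.1 CPM in WT, 354 to 361 CPM in mutant and 248 and 235 CPM in null lines. It rose by 1.65 on the log2 scale in mutant against WT (SE 0.170, adjusted p = 0.0162) and by 1.37 in the 4NQO lines against WT (adjusted p = 0.0207), and in null against WT it was 1.09 higher with adjusted p = 0.0813. Uhrf2, a paralog of Uhrf1, was at 63.6 and 55.9 CPM in WT, 122 to 133 CPM in mutant and 100 and 129 CPM in null lines, and rose by 1.10 in mutant against WT (SE 0.165, adjusted p = 0.0245) and by 1.02 in the 4NQO lines (adjusted p = 0.0289). Uhrf1 and Uhrf2 thus differed in order, since null 1 had the lowest Uhrf1 of all lines but more Uhrf2 than either WT line. Phc3, a subunit of Polycomb repressive complex 1 (PRC1), was at 52.97 and 46.8 CPM in WT and 91.4 to 106 CPM in mutant lines (log2 fold change 0.99, SE 0.192, adjusted p = 0.0365). Ahcy, which removes the S-adenosylhomocysteine left by methyltransferases, was at 63.1 and 61.7 CPM in WT and 23.6 to 40.9 CPM in the 4NQO lines and fell by 1.02 there (SE 0.194, adjusted p = 0.0425). Each of these calls was lost when WT 1, WT 2, mutant 2 or mutant 3 was left out. Without mutant 2 and mutant 3 the edgeR adjusted p in mutant against WT was 0.0579 and 0.0726 for Rbbp4, 0.0690 and 0.0848 for Uhrf2, and 0.0803 and 0.107 for Phc3. In the 4NQO lines it was 0.0504 and 0.0619 for Rbbp4, 0.0587 and 0.0680 for Uhrf2, and 0.0678 and 0.0653 for Ahcy. The Ahcy call was also lost without null 1 or null 3, and the Uhrf2 call in the 4NQO lines without null 3. Leaving out a WT or null line leaves only 1 line in that group, so those losses come with a smaller group. The directions held in all of these fits.

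**Figure D5:**
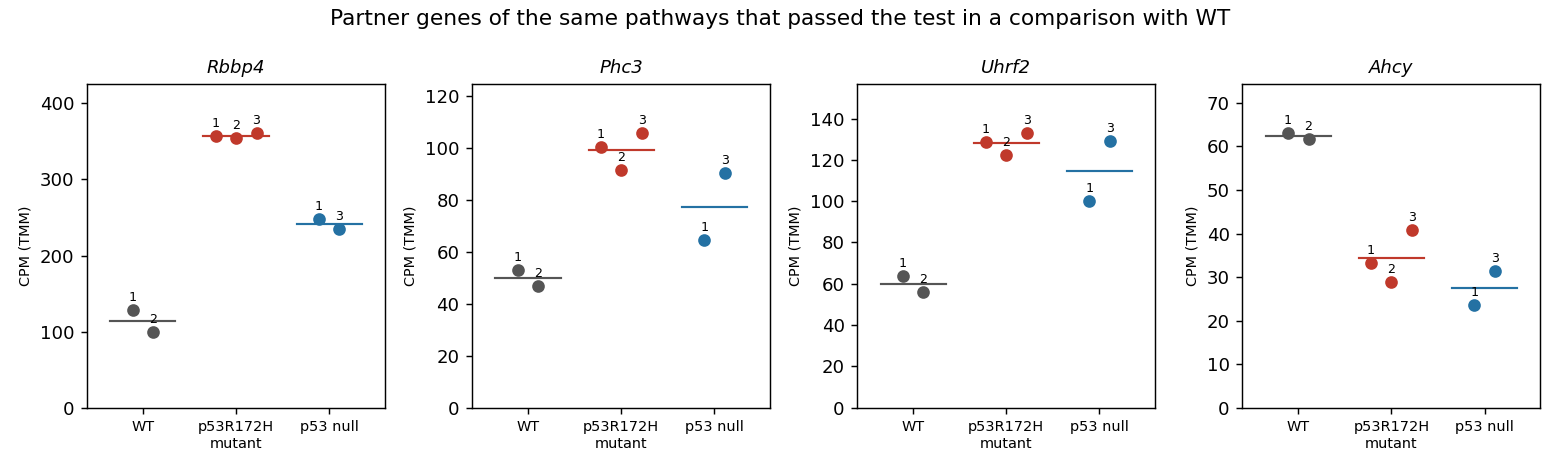
Level (y axis, TMM-normalized CPM, from 0) of Rbbp4, Phc3, Uhrf2 and Ahcy in each line, with 1 point per library, its line number and the group mean as a bar. The WT lines are the lowest for Rbbp4, Phc3 and Uhrf2 and the highest for Ahcy.

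The other core PRC2 genes Eed and Suz12 did not pass in any comparison. Eed was at 54.1 and 59.4 CPM in WT, 42.2 to 60.1 CPM in mutant and 36.4 and 44.5 CPM in null lines, and Suz12 was at 129 and 148, 143 to 166, and 132 and 138 CPM. Of the demethylases that remove the PRC2 mark, Kdm6b was at 108 and 102 CPM in WT and 116 to 137 CPM in the 4NQO lines, and Kdm6a at 50.5 and 63.9 CPM in WT and 34.8 to 48.7 CPM in the 4NQO lines (log2 fold change -0.52, adjusted p = 0.129). Kdm6a is X-linked and escapes X inactivation, and its Y-linked paralog Uty was at 15.4 to 19.14 CPM in the mutant lines and 25.9 CPM in null 3, at 0.204 CPM in WT 1, and at 0 in WT 2 and null 1. The 5 lines with the lower Kdm6a levels were those with Xist below 1 CPM, and Uty was above 1 CPM in only 4 of them. The part of the X and Y chromosomes in the Kdm6a difference was not tested. Dnmt3l, a catalytically inactive cofactor of the de novo enzymes, was near the floor in all lines. It was at 0.170 and 0.162 CPM in WT and 0.342 to 1.02 CPM in the 4NQO lines (log2 fold change 1.55, edgeR adjusted p = 0.230).

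A pair of lists was drawn up for genes that these marks silence. Of 18 genes listed as germline genes silenced by promoter methylation 3 passed the filter. None of these was called in any comparison by edgeR, DESeq2 or limma-voom, or had an unadjusted edgeR p under 0.05. The 15 that did not pass had 0 to 59 counts over all libraries, the highest being Ddx4 with 59 and Sycp3 with 44, and in both of these null 1 had the most, 20 counts. Taf9b, the gene on that list with the smallest p in mutant against WT, was at 1.97 and 3.00 CPM in WT and 2.87 to 9.25 CPM in mutant lines (adjusted p = 0.168). In the null lines Taf9b was at 3.13 and 3.08 CPM. Since it was detected in every line, it was not silent here and is no readout of promoter methylation. Of 20 developmental regulators known as Polycomb targets 11 passed the filter and edgeR called none in any comparison. At an unadjusted edgeR p under 0.05 the counts were 5, 3, 1 and 3 of 11, where 30.5%, 20.2%, 14% and 28.1% of all tested genes passed. DESeq2 called 5, 4, 0 and 4 of the 11, where it called 3197, 1548, 604 and 2819 of the 13768 tested genes. Limma-voom called 0 of the 11 in each comparison. Their median log2 fold change was 2.80 in mutant and 1.95 in null against WT, against 0.08 and 0.06 for all tested genes. Only genes with enough counts in some line were tested. A gene silent in WT thus entered these counts and this median only if it was higher elsewhere. Neither the counts nor the median are therefore support for a shift. Cdkn2a, the Polycomb-repressed locus of p16 and p19Arf, was at 39.9 and 65.1 CPM in WT, 253, 143 and 250 CPM in mutant and 118 and 286 CPM in null lines. All 5 4NQO lines were above both WT lines, by 1.99 on the log2 scale (SE 0.457, adjusted p = 0.0587). Of all tested genes 17.4% had this order. Cdkn2a was detected in both WT lines, so it was not silent there. Cdkn2b, from the same list, was at 91.7 and 47.1 CPM in WT, 108, 59.9 and 94.6 CPM in mutant, and 59.6 and 106 CPM in null lines. Its 4NQO lines overlapped with WT (log2 fold change 0.29, edgeR adjusted p = 0.640). Bmp4 was at 0.953 and 1.95 CPM in WT, 61.0, 25.7 and 46.1 CPM in mutant, and 1.80 and 93.2 CPM in null lines (adjusted p = 0.0973 in mutant against WT). Null 1 was level with WT and null 3 was the highest line for Bmp4, and the summed fibroblast markers were 11.6 and 818 CPM in these lines. The part of such cells in the Bmp4 level was not tested.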

How the data were processed

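Strand-specific libraries were made from polyadenylated, column-purified RNA, per the labels' protocols. The authors deposited 1 table of raw read counts per gene. STAR 2.5.1b and mm9 are named in the submitters' processing notes. How reads were counted, with which strand setting and which annotation, is not given in the sources used here. The 92 spike-in names held a total of 0 counts and were left out. Groups came from the sample titles. Library copies were checked: chi-square per degree of freedom between replicate libraries was 58.8 to 248.

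All 7 libraries entered 1 fit with edgeR 4.0.16 in R 4.3.3 (quasi-likelihood F test, legacy form, TMM factors, default filter by group, Benjamini-Hochberg over 13768 genes, threshold 0.05). In the 4NQO contrast mutant and null counted equally. Standard errors came from the fold change and F statistic, and 95% intervals from the same with the fitted degrees of freedom. The script was tested on simulated data. Ratios used counts plus 0.5, and log2 CPM a prior count of 2. Other settings tried were no filter, DESeq2 1.42.0, RLE factors, upper-quartile factors, limma-voom (limma 3.58.1), 5 CPM in 2 libraries, the newer quasi-likelihood form, only the groups compared, a replicate block, a ratio pseudocount of 5, and leaving out each library. For partner genes these settings were chosen with the data in view.

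The 9 genes and all lists were chosen with earlier results of these data known. Named genes were the 9; Trp53 and Xist; called partners; Eed, Suz12, Kdm6a, Kdm6b, Uty, Uhrf1, Tet1 and Dnmt3l; the called genes, or else those with the smallest p, of the silenced lists; proliferation genes; and the 3 nearest profiles; some genes that this rule names are not reported here. H2-DMa, Ddx3y, the cell type markers, Cdkn2b, Ddx4 and Sycp3 were named after their values were seen. Promoters are RefSeq windows of GRCm38.p6, not the build of the counts.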

Additional observations from a re-analysis of the deposited data

Results flagged for a closer look

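The Tet3 to Tet2 ratio moved in opposite directions in the 2 altered genotypes. The 3 mutant lines were below the WT mean and the 2 null lines above it, with a difference between mutant and null of -0.756 on the log2 scale. The difference was not tested at the 0.05 level, since 3 against 2 lines allow an exact permutation p of no less than 0.1, which is the value it gave. The mutant lines lay between the 2 WT lines, so the opposite direction rests on the mean of 2 WT lines that differ from each other by more than the mutant lines do.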

How the results depend on the processing

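Across all alternatives run, 530 values of the 9 genes kept direction and side of the threshold, 13 newly passed it and 24 changed sign. DESeq2 called 3197, 1548, 604 and 2819 genes and 2, 1, 2 and 1 of the 9 in mutant against WT, null against WT, mutant against null and 4NQO lines against WT, where edgeR called 1022, 19, 0 and 648. In mutant against WT 1 of the 9 was called by limma-voom, with the filter of 5 CPM, with the newer quasi-likelihood form and with only the groups compared. Limma-voom called 0 genes in null against WT and 380 in 4NQO lines against WT; no filter gave 77 and the newer form 55 in null against WT; in mutant against null 1 gene was called with RLE factors, upper-quartile factors, the filter of 5 CPM and the newer form, and 2 with no filter. With the replicate block no gene was called in mutant against WT, null against WT or 4NQO lines against WT (2887, 1454 and 2255 at an unadjusted p under 0.05). The block turned null against WT to 0.084 for Brd2 and 0.076 for Dnmt3a. The numbers do not pair the lines by any label; same-numbered lines of different groups had correlated deviations of -0.34 to 0.22. Upper-quartile factors turned Tet2 in 4NQO lines against WT to -0.0091.

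Leaving out 1 library gave 0 to 1420, 0 to 55, 0 to 22 and 1 to 882 called genes in the 4 comparisons, and 0 to 1 of the 9 in mutant against WT. Fits without a WT or a null library leave only 1 line in that group. In mutant against WT 37 genes were called without mutant 2 and 6 without mutant 3. Signs changed for Brd2 (-0.030 to 0.17 in mutant against WT, -0.053 to 0.030 in null against WT, -0.020 to 0.19 in mutant against null, -0.020 to 0.074 in 4NQO lines against WT), Brd3 (-0.029 to 0.18 in null against WT and -0.027 to 0.18 in mutant against null), Dnmt1 (-0.34 to 0.33) and Tet3 (-0.065 to 0.23) in mutant against WT, Dnmt3a (-0.40 to 0.18) and Ezh1 (-0.0071 to 0.38) in null against WT, and Ezh1 (-0.20 to 0.13) and Tet2 (-0.13 to 0.17) in 4NQO lines against WT. The log2 ratio differences ranged from -0.031 to 0.21 for Brd3 to Brd2 and from -0.14 to 0.44 for Tet3 to Tet2. The cause of these changes was not tested. Of the 9 genes Dnmt3b had the fewest counts and rests on as few as 37 counts.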
